A study of Mus with 4 samples.

Results

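Chromatin remodellers and transcription coregulators set how accessible and how active genes are, and 44 genes encoding such proteins were followed here through the circular RNAs (circRNAs) made from them. A circRNA is a ring of RNA made by back-splicing, in which the end of an exon is joined to the start of the same or an earlier one. Reads that cross this junction count it. The 44 hosts were given as a list of names, chosen with earlier results of these data known. They were among 7254 host genes in the tables and gave 748 of the 44073 circRNAs, each with 1 host. Junction reads were summed per host and compared between libraries. The sums follow circular products of these genes and do not measure their linear mRNA or protein.

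The 4 libraries came from ocular tissue of C57BL/6J mice, with 1 library in each group. They were VLDLR deletion at postnatal day 13 (P13), VLDLR deletion at P12, wild type at P13 and wild type at P12. VLDLR is the very-low-density lipoprotein receptor, and its deletion was compared here with wild type. All pups had breathed 75% oxygen between P7 and P12, so that the wild-type mice were also oxygen-treated and no group was kept in room air throughout. Tissue was taken at P12 straight after oxygen or at P13 after 1 day in room air. Age and the return to air therefore cannot be told apart. The labels do not say how the allele was made, which parts of the eye were taken or how many animals a library holds. Read identifiers showed the deletion libraries on 1 sequencing run and the wild-type libraries on another, so genotype and run cannot be told apart. Ocular tissue is a mixture, and fewer cells of a type and less circRNA per cell cannot be told apart.

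Remodellers of the CHD, SWI/SNF, ISWI and INO80 families use ATP to slide, eject or exchange nucleosomes. The Polycomb complex that holds EZH2 marks histone H3 for repression. Coactivators such as CREBBP and EP300 acetylate histones, whereas NCOR1, TLE proteins and class II histone deacetylases belong to repressor complexes. In the developing retina, Polycomb and SWI/SNF complexes act in the order in which progenitors give rise to neurons and glia, and nuclear factor I proteins act in the late-born cell types. Many of these genes are long and have many exons, and several are known hosts of circRNAs.

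The libraries held 341873 junction reads in deletion P13, 299723 in deletion P12, 759063 in wild type P13 and 662811 in wild type P12. The member hosts took 7898 and 7128 of these reads in deletion P13 and P12, against 18611 and 17596 in wild type P13 and P12. Their share was 2.31% in deletion P13 (95% Wilson interval 2.26 to 2.36), 2.38% in deletion P12 (2.32 to 2.43), 2.45% in wild type P13 (2.42 to 2.49) and 2.65% in wild type P12 (2.62 to 2.69). Both deletion libraries had a lower share than both wild-type libraries, but the intervals of deletion P12 and wild type P13 met. No molecular identifiers were used, so that intervals here and below hold counting error alone. Vldlr had 0 circRNAs in the tables, so the targeted gene gave no check of the labels. Levels below are junction reads per 1000000 of the effective library size (CPM), after trimmed mean of M-values (TMM) scaling over those circRNAs that had 10 or more reads in 2 or more libraries. The effective size counts their reads alone.

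Rere had the most reads among the members, with 1382, 1294, 3763 and 3350 in deletion P13, deletion P12, wild type P13 and wild type P12. RERE is a corepressor of the atrophin family. Ncoa2, a nuclear receptor coactivator gene, followed with 1242 and 1065 reads in deletion P13 and P12, against 2253 and 2484 in wild type P13 and P12, and Ezh2, the Polycomb histone methyltransferase gene, with 810 and 724 in the deletion against 1454 and 1515 in wild type. The next 7 by reads were Ep400, Kat6b, Setbp1, Ep300, Crebbp, Baz2b and Chd2. At the other end, Smarca5 had 5 reads, and Tet2 and Tet3 had 3 reads each over the 4 libraries. Baz1a had 28 reads and was unlisted in deletion P12. These 4 hosts fell below the minimum of 10 reads in at least 2 libraries, so that 40 of the 44 hosts were tested.

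**Figure D1:**
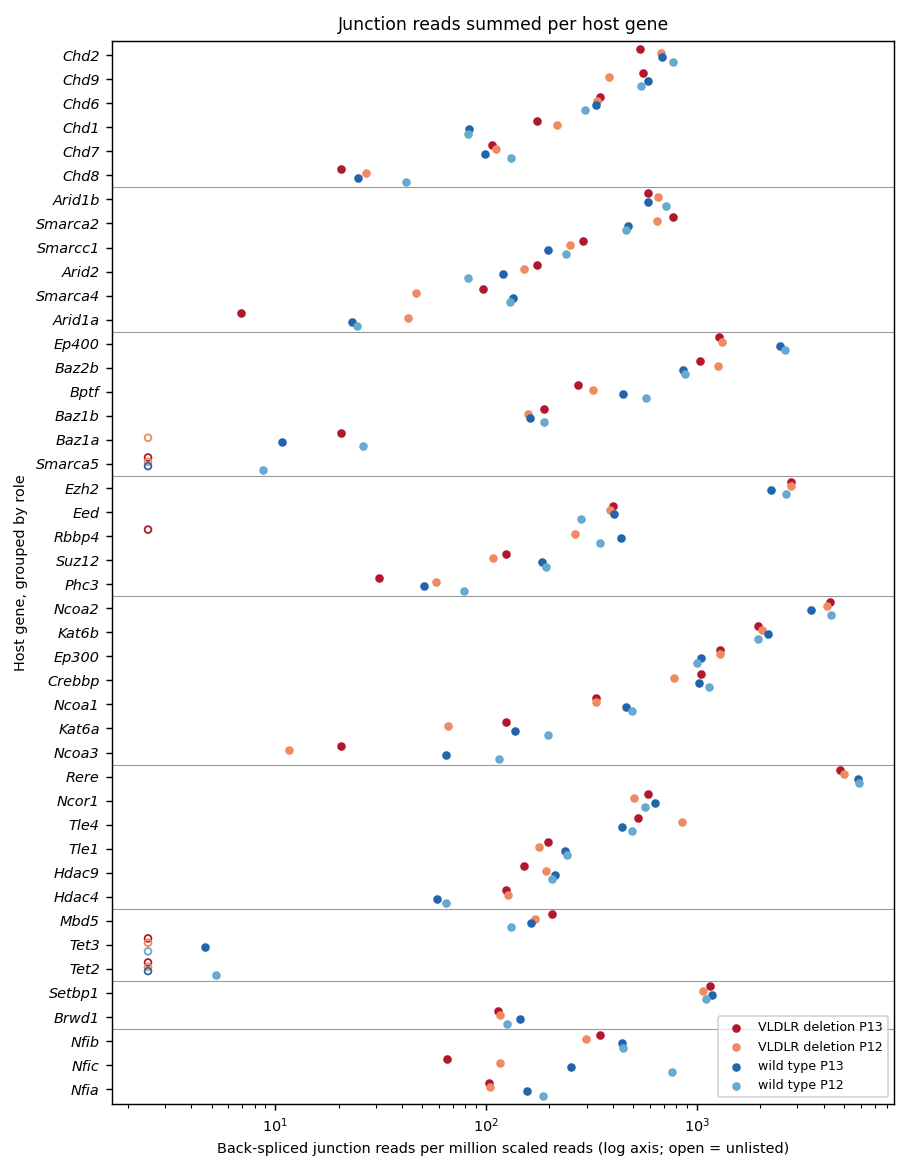
Each point is the junction reads of 1 host summed over its circRNAs in 1 library, in CPM on a log axis, for the 44 hosts grouped by role; open points at the left edge stand for hosts unlisted in a library. Rere, Ncoa2 and Ezh2 have the highest points, and Rbbp4 is unlisted in deletion P13.

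The median number of circRNAs was 14 per member host, against 3 over all hosts, and Rere had 64. This difference was not tested. The members were chosen with earlier results of these data known, so it cannot show that such genes give more circRNAs. Their circRNAs spanned a median of 11252.5 bases on the genome, against 10678.5 for all circRNAs with a host. The tables placed 86.2% of the member circRNAs in the exon class and 13.8% in the intron class, against 91.5% and 8.48% of all with a host. In some hosts 1 circRNA held most of the reads. It was 89.4% of the reads in Chd1, 89.1% in Setbp1, 78.3% in Kat6b, 67.3% in Ncoa2 and 67.1% in Ep400, but 13.8% in Rere and 21.7% in Baz2b.

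Between the genotypes, the summed junction reads of 4 member hosts were higher in the deletion (Chd1, Smarca2, Tle4 and Baz2b) and those of 4 were lower (Nfic, Ncoa3, Ep400 and Bptf), of 40 tested. The test was edgeR's quasi-likelihood test on all 4 libraries with genotype and day as additive terms, at a Benjamini-Hochberg adjusted p under 0.05. The background over all 3924 hosts tested was 6.04% higher and 7.62% lower. The members counted 7 higher and 11 lower by unadjusted p under 0.05, beside 409 and 566 of all 3924 hosts. The median log2 fold change of the 40 hosts was -0.22, beside -0.10 over all hosts. With 1 residual degree of freedom these p-values measure only the spread left between 4 libraries, and the spread of each gene is estimated largely from all genes together.

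All folds are relative to the median circRNA, because the scaling sets that median near 0. The authors' own scale, SRPBM, divides the junction reads by 1 constant per library and moves the median genotype log2 fold change by -1.46 for hosts and -1.45 for circRNAs. On it 0 member hosts were higher and 36 were lower, beside 7 and 2983 of all 3924 hosts. The 4 member hosts called higher on the TMM scale all lay below wild type there. Over all hosts, 38 of the 237 called higher lay above wild type there. DESeq2 called 1 host higher (Smarca2) and 2 lower (Nfic and Ep400), beside 114 and 73 over all hosts. With it the adjusted p was 0.0591 for Chd1, 0.105 for Tle4, 0.0768 for Baz2b and 0.083 for Bptf, and Ncoa3 had none. With genotype alone in the model, Tle4 (0.0887) and Baz2b (0.0724) did not pass either. Fits without 1 library, given below, hold 3 libraries and drop the day term. They are thus another model than the main fit, with 1 library left in 1 genotype and the spread taken from the other genotype. A call that held in them shows only that it did not hang on the library left out.

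Among the CHD remodellers, which slide nucleosomes and carry chromodomains, 1 of 6 hosts rose and the other 5 did not pass the test. Chd1 encodes a protein that binds a histone H3 methyl mark of active promoters. The wild-type libraries held more junction reads in total, but Chd1 had 51 and 56 reads in deletion P13 and deletion P12, against 54 and 47 in wild type P13 and wild type P12. In CPM these were 175.5 and 217 in the deletion, against 83.4 and 82.3 in wild type. Both deletion libraries were above both wild-type libraries (log2 1.23 ± 0.31 SE, edgeR adjusted p = 0.00157, and -0.23 on the SRPBM scale). The call held without any 1 of the 4 libraries. Nearly all of these reads came from 1 circRNA at chromosome 17, 15742157 to 15743230, with 49 and 53 reads in deletion P13 and P12, against 42 and 42 in wild type P13 and P12 (log2 1.43 ± 0.27, edgeR adjusted p = 0.00262, and -0.03 on the SRPBM scale). Chd2 (log2 -0.26), Chd9 (-0.28), Chd6 (0.12), Chd7 (-0.06) and Chd8 (-0.45) had adjusted p-values between 0.305 and 0.943.

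In the SWI/SNF group, 1 of 6 hosts rose. Smarca2, encoding the ATPase BRM, had 774 and 650 CPM in deletion P13 and deletion P12, against 471 and 460.3 CPM in wild type P13 and wild type P12. The groups did not overlap (log2 0.61 ± 0.16, edgeR adjusted p = 0.0028, and -0.85 on the SRPBM scale). The call was lost without deletion P13 (adjusted p = 0.067), without wild type P13 (0.0552) and without wild type P12 (0.087). Smarca4, encoding the alternative ATPase BRG1, had 96.3 and 46.4 CPM in the deletion against 134 and 129 CPM in wild type, and did not pass (log2 -0.91 ± 0.38, edgeR adjusted p = 0.0914). Whether the effect on Smarca2 differs from that on Smarca4 was not tested.

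Of the 8 tested Smarca2 circRNAs 2 rose, in different parts of the gene. In all, 3 of the 8 had a log2 fold change above 0 and 5 had one below 0. The first, at chromosome 19, 26647021 to 26654511, had 80, 76, 95 and 88 reads in deletion P13, deletion P12, wild type P13 and wild type P12 (log2 0.92 ± 0.22, edgeR adjusted p = 0.0117, and -0.54 on the SRPBM scale). The second, at 26706068 to 26710685, had 48 and 31 reads in deletion P13 and P12, against 44 and 15 in wild type P13 and P12 (log2 1.65 ± 0.35, edgeR adjusted p = 0.00548, and 0.19 on the SRPBM scale). The call of the first was lost without wild type P13 (adjusted p = 0.0569), and that of the second without wild type P12 (0.117), the library with its fewest reads.

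A circRNA of Arid2, the gene of a subunit of the PBAF form of SWI/SNF, had the largest log2 fold change of the 14 circRNAs called higher in the deletion. It spans 314 bases at chromosome 15, 96390876 to 96391189, and had 22 and 19 reads in deletion P13 and P12, against 10 and 9 in wild type P13 and P12, or 75.7 and 73.5 CPM in the deletion against 15.4 and 15.8 CPM in wild type. Deletion and wild type were far apart and the days within a genotype were not (log2 2.24 ± 0.51, edgeR adjusted p = 0.00825, and 0.79 on the SRPBM scale). The call held without any 1 of the 4 libraries. DESeq2 gave this circRNA no adjusted p. The most abundant Arid2 circRNA has the same start and ends at 96392664. It had 23 and 15 reads in deletion P13 and P12, against 49 and 33 in wild type P13 and P12, and did not pass (log2 0.04, edgeR adjusted p = 0.967). Summed over its 7 circRNAs, Arid2 did not pass (log2 0.70 ± 0.32, edgeR adjusted p = 0.138). Arid1b (log2 -0.06), Smarcc1 (0.31) and Arid1a (-0.20) did not pass either.

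The ISWI, BAZ and INO80-type group held 2 of the hosts that fell and 1 that rose, of 4 tested. Ep400, encoding a large ATPase that places histone variants, had 371 and 339 reads in deletion P13 and deletion P12, against 1612 and 1489 in wild type P13 and wild type P12. In CPM these were 1276 and 1312 in the deletion against 2489 and 2606 in wild type, so that the deletion had about the same level at both days, as had wild type (log2 -0.98 ± 0.12, edgeR adjusted p = 8.98e-15, and -2.44 on the SRPBM scale). The call held without any 1 of the 4 libraries.

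A pair of nested Ep400 circRNAs with a common end fell. The exonic one, at chromosome 5, 110755397 to 110756766, had 217 and 208 reads in deletion P13 and P12, against 1152 and 981 in wild type P13 and P12 (log2 -1.17 ± 0.14, edgeR adjusted p = 2.06e-05). One of the intron class reaches further, over 110753804 to 110756766, and had 92 and 75 reads in deletion P13 and P12, against 334 and 368 in wild type P13 and P12 (log2 -0.92 ± 0.18, edgeR adjusted p = 0.00349). Both calls held without any 1 of the 4 libraries.

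Bptf, encoding the largest subunit of the NURF remodelling complex, had 272 and 321 CPM in the deletion at P13 and P12, against 448 and 574 CPM in wild type (log2 -0.78 ± 0.19, edgeR adjusted p = 0.00119, and -2.24 on the SRPBM scale). Its circRNA at chromosome 11, 107110813 to 107111635, had 33 and 35 reads in deletion P13 and P12, against 140 and 201 in wild type P13 and P12 (log2 -1.16 ± 0.24, edgeR adjusted p = 0.0042). Wild type P12 was the highest library for both, and without it neither passed (adjusted p = 0.225 for the host and 0.167 for the circRNA).

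Baz2b, whose protein has a bromodomain that binds acetylated histones, rose (1032 and 1265 CPM in deletion P13 and P12, against 857 and 877 CPM in wild type P13 and P12; log2 0.40 ± 0.13, edgeR adjusted p = 0.0282, and -1.06 on the SRPBM scale). That call was lost without deletion P12 (adjusted p = 0.315), without wild type P13 (0.215) and without wild type P12 (0.175). Of its 9 tested circRNAs, 7 had a log2 fold change above 0 and 2 were called higher. The first, at chromosome 2, 59948087 to 59958492, had 49 and 41 reads in deletion P13 and P12, against 53 and 38 in wild type P13 and P12 (log2 1.14 ± 0.28, edgeR adjusted p = 0.0156, and -0.32 on the SRPBM scale). The second, of the intron class at 59977359 to 59983970, had 33 and 23 reads in deletion P13 and P12, against 29 and 22 in wild type P13 and P12 (log2 1.27 ± 0.38, edgeR adjusted p = 0.0477, and -0.19 on the SRPBM scale). Without wild type P12 the adjusted p-values were 0.108 and 0.174, and the second was also lost without deletion P13 (0.14) and without wild type P13 (0.0839). The most abundant Baz2b circRNA starts where the first of these does and ends at 59962630. It had 56 and 60 reads in deletion P13 and P12, against 149 and 100 in wild type P13 and P12 and did not pass (log2 0.07 ± 0.23).

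No Polycomb or histone chaperone host passed the test in either direction, of 5 tested, yet 3 of their circRNAs did. The main Ezh2 circRNA, at chromosome 6, 47576536 to 47577667, had 498 and 452 reads in deletion P13 and P12, against 750 and 778 in wild type P13 and P12, or 1713 and 1749 CPM in deletion P13 and deletion P12, against 1158 and 1362 CPM in wild type P13 and wild type P12. It rose by a small amount (log2 0.46 ± 0.13, edgeR adjusted p = 0.0309), while on the SRPBM scale it was called lower (-0.998). The call was lost without deletion P12 (adjusted p = 0.0547) and without wild type P13 (0.212). Suz12, whose protein is a core subunit of the complex with EZH2, had 124 and 108 CPM in the deletion against 184 and 192.5 CPM in wild type (log2 -0.69 ± 0.29, edgeR adjusted p = 0.0998). Phc3, of the other Polycomb complex, did not pass (log2 -0.56 ± 0.49).

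Eed, whose protein binds the histone mark that EZH2 writes, gave 1 circRNA in each direction. The main one, at chromosome 7, 89955531 to 89962361, had 91 and 78 reads in deletion P13 and P12, against 130 and 102 in wild type P13 and P12 (log2 0.70 ± 0.21, edgeR adjusted p = 0.0451), and was called lower on the SRPBM scale (-0.76). A smaller one, at 89969571 to 89972323, had 3 and 4 reads in deletion P13 and P12, against 31 and 35 in wild type P13 and P12 (log2 -2.07 ± 0.59, edgeR adjusted p = 0.0372). The first was lost without each of the 4 libraries (adjusted p = 0.0752 to 0.247) and the second without deletion P13 (0.0764). The host sum hid both, at 399 and 387 CPM in deletion P13 and deletion P12, against 403 and 283.5 CPM in wild type P13 and wild type P12.

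Of 7 coactivator and acetyltransferase hosts, 1 fell. Ncoa3, encoding a steroid receptor coactivator, had 6 and 3 reads in deletion P13 and deletion P12, against 42 and 66 in wild type P13 and wild type P12 (log2 -2.39 ± 0.56, edgeR adjusted p = 0.000494, and -3.83 on the SRPBM scale). Its main circRNA at chromosome 2, 166048455 to 166051706, had 3 and 3 reads in deletion P13 and P12, against 36 and 56 in wild type P13 and P12 (log2 -2.74 ± 0.56, edgeR adjusted p = 0.00405). Both calls held without either deletion library. Without a wild-type library they could not be tested, since too few libraries kept 10 reads. The related hosts Ncoa1 (log2 -0.51 ± 0.19, edgeR adjusted p = 0.0566) and Ncoa2 (0.11 ± 0.10, 0.556) did not pass.

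Ep300 and Crebbp encode paralogous histone acetyltransferases, and their circRNAs gave opposite calls at single junctions. The main Ep300 circRNA, at chromosome 15, 81631614 to 81632512, had 169 and 142 reads in deletion P13 and P12, against 193 and 127 in wild type P13 and P12, or 581.5 and 549 CPM in the deletion against 298 and 222 CPM in wild type. All deletion values lay above all wild-type values (log2 1.13 ± 0.18, edgeR adjusted p = 0.000623, and -0.33 on the SRPBM scale), and the call held without any 1 of the 4 libraries. The main Crebbp circRNA, at chromosome 16, 4137366 to 4138985, had 118 and 88 reads in deletion P13 and P12, against 241 and 232 in wild type P13 and P12 and a log2 fold change of -0.06 ± 0.19, which did not pass. A second Crebbp circRNA, at 4138745 to 4180133, was unlisted in both deletion libraries and had 23 and 26 reads in wild type P13 and wild type P12 (edgeR adjusted p = 0.00664). Taking 3 reads as the floor per library, it was at least 3.44-fold lower at P13 and at least 3.92-fold lower at P12, if the caller did not leave it out. As host sums Ep300 (log2 0.33 ± 0.13, edgeR adjusted p = 0.0687) and Crebbp (-0.25 ± 0.14, 0.241) did not pass.

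Kat6b, an acetyltransferase gene of the MYST family, had 1 circRNA of its 5 tested that rose. It spans 38030 bases at chromosome 14, 21626719 to 21664748, and had 89 and 71 reads in deletion P13 and P12, against 119 and 74 in wild type P13 and P12 (log2 0.90 ± 0.22, edgeR adjusted p = 0.0145, and -0.56 on the SRPBM scale). The call was lost without deletion P13 (adjusted p = 0.0559) and without wild type P12 (0.213). The main Kat6b circRNA, at 21516626 to 21517498, had 418 and 411 reads in deletion P13 and P12, against 1100 and 900 in wild type P13 and P12 and did not pass (log2 -0.11 ± 0.13). Kat6a, its paralogue, had 36 and 17 reads in deletion P13 and P12, against 89 and 113 in wild type P13 and P12 (log2 -0.80 ± 0.32, edgeR adjusted p = 0.0738).

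Among the corepressors and deacetylases, 1 of 6 hosts rose, and 4 of 51 tested circRNAs rose and 2 fell. Tle4, encoding a Groucho-family corepressor, had 526 and 851 CPM in deletion P13 and deletion P12, against 443 and 492 CPM in wild type P13 and wild type P12 (log2 0.53 ± 0.16, edgeR adjusted p = 0.015), and was called lower on the SRPBM scale (-0.93). Without deletion P12 the log2 fold change was 0.17 (adjusted p = 0.639), and the call was also lost without wild type P13 (0.199) and without wild type P12 (0.0723). Its main circRNA was steadier than the sum. At chromosome 19, 14516359 to 14564451, it had 149 and 138 reads in deletion P13 and P12, against 191 and 174 in wild type P13 and P12, or 513 and 534 CPM in the deletion against 295 and 304.5 CPM in wild type (log2 0.80 ± 0.18, edgeR adjusted p = 0.00665), was called lower on the SRPBM scale (-0.66), and passed without any 1 of the 4 libraries. Tle1 (log2 -0.36), Ncor1 (-0.14) and Hdac9 (-0.29) did not pass.

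Hdac4, a class II deacetylase gene, had 124 and 128 CPM in the deletion against 58.7 and 64.8 CPM in wild type, without overlap, but its sum did not pass (log2 1.03 ± 0.39, edgeR adjusted p = 0.0607). Its 239-base circRNA at chromosome 1, 92148256 to 92148494, had 20 and 15 reads in deletion P13 and P12, against 12 and 9 in wild type P13 and P12 and passed (log2 1.87 ± 0.53, edgeR adjusted p = 0.0358, and 0.42 on the SRPBM scale). That call was lost without wild type P13 (adjusted p = 0.0567) and without wild type P12 (0.11).

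The nuclear factor I genes encode DNA-binding transcription factors of late retinal progenitors and glia. Nfic had the lowest genotype log2 fold change of the 40 tested hosts, with 19 and 30 reads in deletion P13 and deletion P12, against 164 and 434 in wild type P13 and wild type P12. In CPM these were 65.4 and 116 in the deletion against 253 and 760 in wild type, so the wild-type libraries also differed from each other (log2 -2.40 ± 0.26, edgeR adjusted p = 2.95e-18, and -3.83 on the SRPBM scale). The call was lost without deletion P12 (log2 -2.94, adjusted p = 0.544), a fit in which the wild-type libraries alone give the spread. A pair of Nfic circRNAs that end at the same position, chromosome 10, 81420798, fell. The one that starts at 81420267 had 15 and 26 reads in deletion P13 and P12, against 129 and 363 in wild type P13 and P12 (log2 -2.37 ± 0.26, edgeR adjusted p = 1.12e-05) and the one that starts at 81400509 had 2 and 4 reads in deletion P13 and P12, against 35 and 58 in wild type P13 and P12 (log2 -2.78 ± 0.56, edgeR adjusted p = 0.00354). The first was lost without deletion P13 (log2 -2.04, adjusted p = 0.722) and without deletion P12 (-3.00, 0.652). With genotype alone in the model, neither the host (adjusted p = 0.205) nor that circRNA (0.202) passed. Nfib (log2 -0.46 ± 0.20, edgeR adjusted p = 0.109) and Nfia (-0.72 ± 0.31, 0.105) had lower means in the deletion and did not pass.

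The remaining tested hosts did not pass. They were Mbd5, a methyl-CpG-binding domain gene (206 and 170 CPM in deletion P13 and P12, against 164 and 131 CPM in wild type P13 and P12), Setbp1 (log2 -0.04), the bromodomain gene Brwd1 (-0.24), Baz1b (-0.01) and Rbbp4, whose listing is given below. Rere had a log2 fold change of -0.26 ± 0.10 and missed the threshold (edgeR adjusted p = 0.058).

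Taken as single circRNAs, 14 of the 181 tested from these hosts were higher in the deletion and 10 were lower, beside a background of 5.03% higher and 3.59% lower over 8785 circRNAs. By unadjusted p under 0.05 the counts were 19 and 25, beside 977 and 834 of all 8785 circRNAs. DESeq2 gave 7 and 5, beside 203 and 124 over all. Of the 24 called circRNAs, 6 had no DESeq2 adjusted p. Another 7 did not pass with it: the first of Smarca2 (adjusted p = 0.103), the Kat6b circRNA (0.11), both of Baz2b (0.147 and 0.234), the main Eed circRNA (0.235) and, of Rere, 150468695 to 150477468 (0.195) and 150439343 to 150477468 (0.107). DESeq2 also called the main Ncoa2 circRNA higher (adjusted p = 0.0367), which edgeR did not (0.0654). The median log2 fold change was -0.23 over the members' circRNAs and -0.08 over all. On the SRPBM scale 0 were higher and 108 lower, beside 25 and 4773 over all circRNAs. Of the 14 called higher, 3 were above wild type on that scale (Arid2, Hdac4 and the second Smarca2 circRNA), and 3 others were called lower on it (Tle4, Ezh2 and Eed). Over all circRNAs, 199 of the 442 called higher were above wild type on it and 68 were called lower. All 10 called lower were called lower on both scales, as were all 315 called lower over all circRNAs. The SRPBM scale moves the folds down, so this is no check of these calls.

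**Figure D2:**
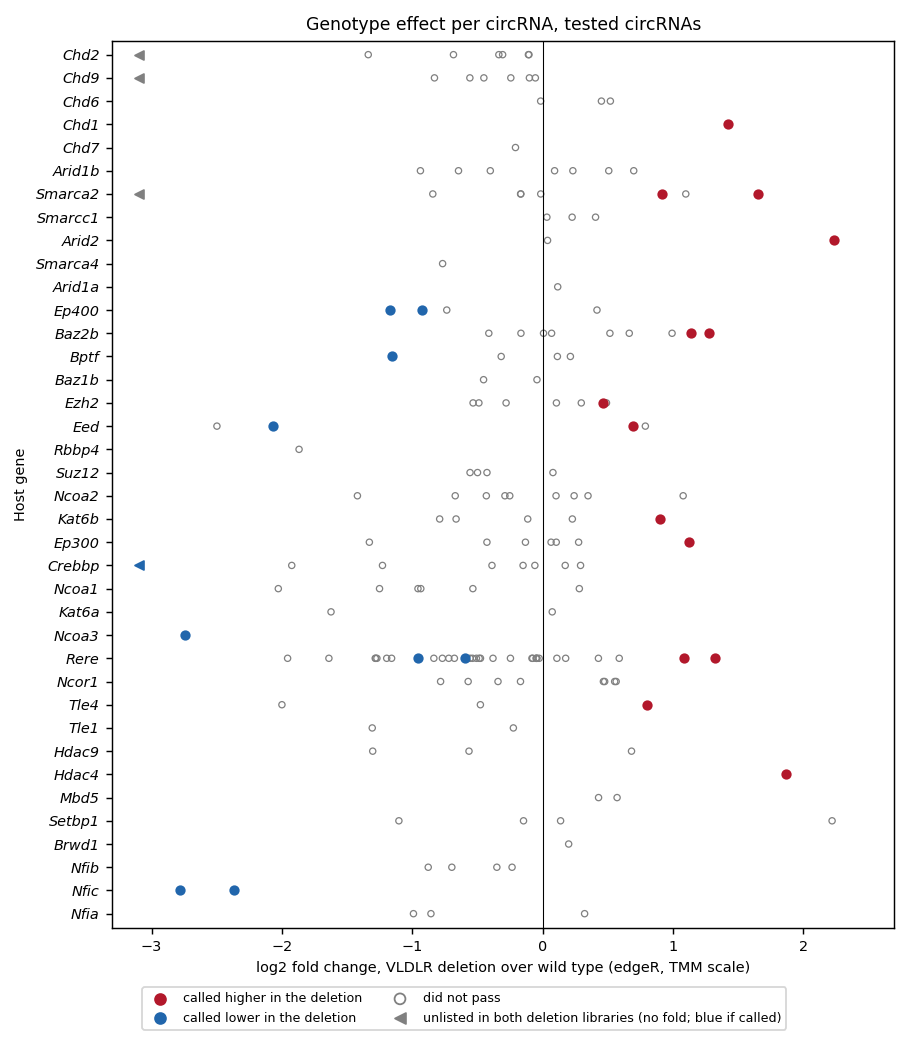
Each point is 1 tested circRNA of a member host, placed by its log2 fold change of VLDLR deletion over wild type from edgeR on the TMM scale; filled red points were called higher, filled blue points lower, open points did not pass, and triangles at the left edge were unlisted in both deletion libraries. Of 181 circRNAs, 14 are red and 10 are blue, and on the SRPBM scale 11 of the 14 red points would lie below 0.

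Rere carried calls in both directions at neighbouring junctions. It had 64 circRNAs, of which 34 were tested, and 28 of these had a log2 fold change below 0. At chromosome 4, the circRNA over 150500003 to 150510038 had 78, 100, 80 and 77 reads in deletion P13, deletion P12, wild type P13 and wild type P12, and rose (log2 1.32 ± 0.22, edgeR adjusted p = 0.000916, and -0.14 on the SRPBM scale). Another over 150468695 to 150477468 had 41 and 45 reads in deletion P13 and P12, against 47 and 43 in wild type P13 and P12 and rose (log2 1.08 ± 0.29, edgeR adjusted p = 0.0238, and -0.38 on the SRPBM scale). Each genotype gave like read numbers here although the wild-type libraries held more junction reads in total.

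Of the 7 other tested circRNAs that share an end with the second of these, 2 fell and the other 5 did not pass. One with the same start, ending at 150534945, had 58 and 52 reads in deletion P13 and P12, against 265 and 210 in wild type P13 and P12 and fell (log2 -0.95 ± 0.20, edgeR adjusted p = 0.00534). One with the same end, starting at 150439343, had 144 and 101 reads in deletion P13 and P12, against 426 and 386 in wild type P13 and P12 and fell (log2 -0.59 ± 0.17, edgeR adjusted p = 0.0372). The one over 150468695 to 150510038 is the most abundant Rere circRNA and did not pass (232 and 172 reads in deletion P13 and P12, against 518 and 426 in wild type P13 and P12; log2 -0.08 ± 0.15). These share a junction end and a host. As between any circRNAs of these libraries, the difference between their log2 fold changes depends little on the scale chosen between libraries. That difference itself was not tested. The circRNA over 150500003 to 150510038 and the one ending at 150534945 kept their calls without any 1 of the 4 libraries. The circRNA over 150468695 to 150477468 lost its call without deletion P12 (adjusted p = 0.106), wild type P13 (0.0851) or wild type P12 (0.0726), and the one starting at 150439343 without the same libraries (0.192, 0.0822 and 0.126).

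**Figure D3:**
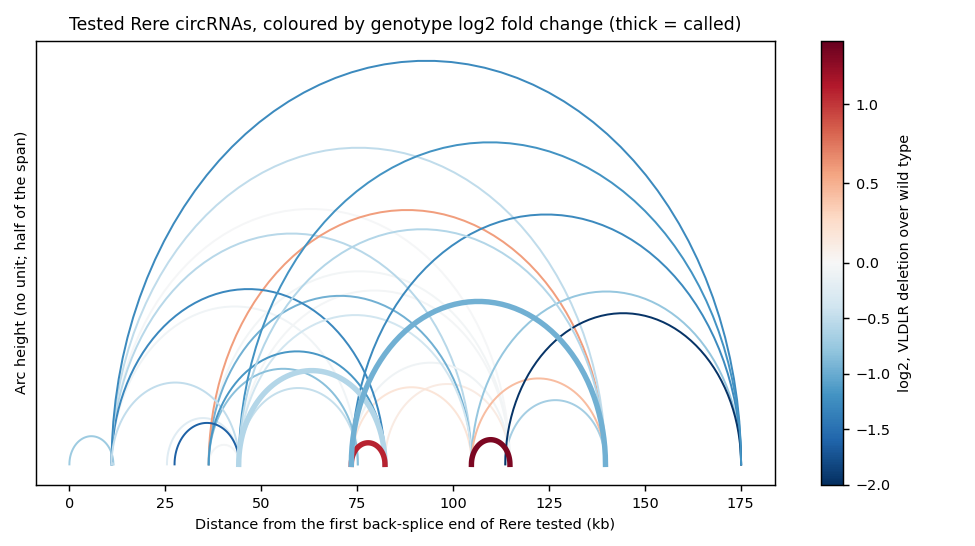
Each arc joins the ends of 1 of the 34 tested Rere circRNAs, drawn along the distance in kb from the first end, with the colour giving the log2 fold change of VLDLR deletion over wild type on the TMM scale and thick arcs marking the 4 called. The 2 thick red arcs (log2 1.32 and 1.08; -0.14 and -0.38 on the SRPBM scale) are short, and the 2 thick blue arcs (-0.59 and -0.95) share an end with a red one.

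By shared end, the 5 tested Rere circRNAs that end at 150570296, the most downstream donor with at least 3 of them, had log2 fold changes between -1.96 and -0.77. The 8 that start at 150406196 had values between -1.28 and -0.03. The 6 that end at 150510038 had values between -0.08 and 1.32. Of the member hosts with 2 or more tested circRNAs, 13 had a call, and 2 of these (Rere and Eed) had calls in both directions, beside 33 of 437 overall.

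The junction ratio sets the reads of a junction against the other reads at the same ends within a library, and so needs no scaling between libraries. The authors' ratio is 2 times the junction reads over that number plus the non-junction reads. All 14 circRNAs called higher had a larger mean ratio in the deletion than in wild type, and in 12 of them both deletion libraries lay above both wild-type libraries. All 9 called lower that had a ratio in every library had a smaller mean ratio in the deletion, 6 of them without overlap. The ratio uses the same junction reads as the call. Over all hosts, the mean ratio moved with the call in 94.4% of 427 circRNAs called higher and 96.4% of 251 called lower. These shares cover the mean alone, and the share without overlap was not counted over all circRNAs.

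For the 314-base Arid2 circRNA the ratio was 0.587 and 0.475 in deletion P13 and deletion P12, against 0.189 and 0.184 in wild type P13 and wild type P12. Its non-junction reads numbered 31 and 42 in the deletion against 86 and 80 in wild type. For the main Ncoa3 circRNA the ratio was 0.24 and 0.231 in the deletion against 0.66 and 0.737 in wild type, with 19 and 20 non-junction reads in deletion P13 and P12, against 37 and 40 in wild type P13 and P12. For the Rere circRNA over 150468695 to 150477468 it was 0.0916 and 0.0931 in the deletion against 0.0341 and 0.0357 in wild type, with 813 and 877 non-junction reads in deletion P13 and P12, against 2666 and 2326 in wild type P13 and P12. The main Nfic circRNA had ratios of 0.25 and 0.385 in the deletion, against 0.566 and 0.8 in wild type. The main Ep400 circRNA differed little in ratio, with 0.801 and 0.868 in the deletion against 0.859 and 0.88 in wild type. It had 108 and 63 non-junction reads in deletion P13 and P12, against 379 and 267 in wild type P13 and P12. The non-junction reads given here are raw counts, not scaled for library size, so they do not compare levels between libraries.

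**Figure D4:**
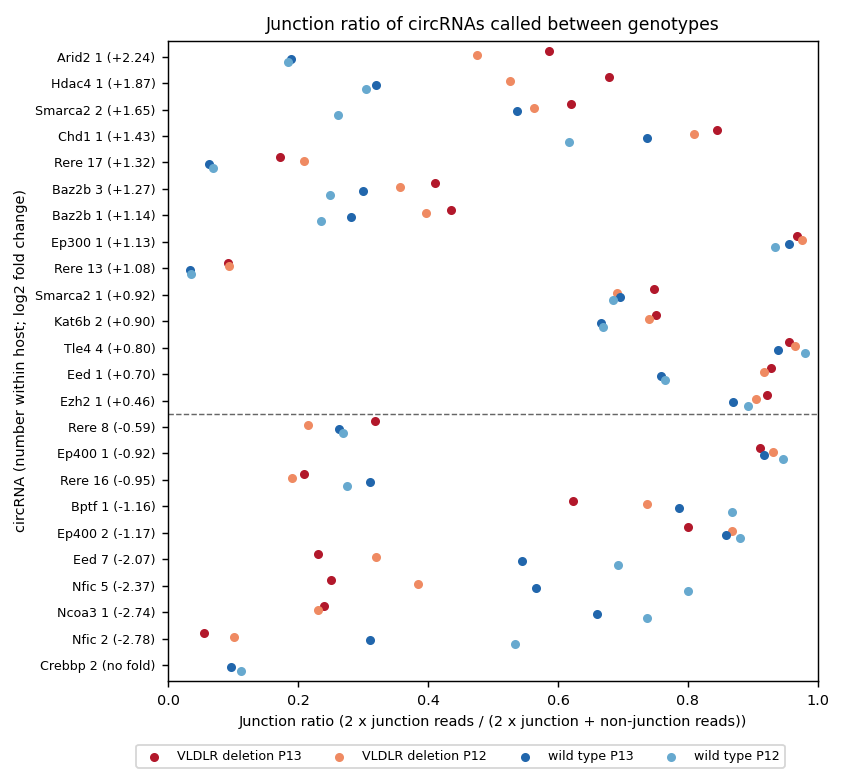
Each row is 1 circRNA called between genotypes, labelled by host, its number within the host and its log2 fold change on the TMM scale, and each point is the junction ratio in 1 library; the dashed line separates those called higher in the deletion (above) from those called lower. The Arid2 points sit at 0.587 and 0.475 in the deletion and at 0.189 and 0.184 in wild type, and 11 of the 14 circRNAs above the line had a negative log2 fold change on the SRPBM scale.

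At each day taken alone, 2 of 39 member hosts were higher in the deletion at both days (background 5.02%) and 4 were lower at both (6.9%). Each comparison here is 1 library against 1, with no test, and a host was called at 1.5-fold or more where the 95% exact interval for counting error excluded 1. Of 39 member hosts with at least 20 reads over the pair at P13, 3 were higher in the deletion (background 10.6%) and 5 were lower (15.3%). Of 40 at P12, 4 were higher (11.7%) and 8 were lower (15.4%). Chd1 (2.10-fold at P13 and 2.63-fold at P12) and Hdac4 (2.11 and 1.97) were higher at both days. Bptf (0.607 and 0.559), Ep400 (0.513 and 0.503), Ncoa3 (0.318 and 0.1) and Nfic (0.258 and 0.153) were lower at both days. On the SRPBM scale 0 hosts were higher at either day.

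Some hosts passed that limit at 1 day alone. Smarca2 was 1.64-fold higher at P13 (interval 1.38 to 1.96), and Arid2 (1.83) and Tle4 (1.73) were higher at P12. Kat6a (0.333, interval 0.187 to 0.556), Smarca4 (0.358, 0.177 to 0.664), Nfia (0.558) and Suz12 (0.563) were lower at P12. Rbbp4 was lower at P13, where it was unlisted. Whether any genotype difference changed with the day was not tested, since 4 libraries leave no spread for that term.

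Between the days, Nfic was the only member host to pass the test, and it fell at P13. It had 19 and 164 reads at P13 in the deletion and wild type, against 30 and 434 at P12 (log2 -1.39 ± 0.24, edgeR adjusted p = 3.05e-05). The members counted 0 higher and 1 lower of 40, beside a background of 0.0255% higher and 0.0765% lower over all hosts. By unadjusted p under 0.05 they counted 0 and 2, beside 95 and 84 of all 3924 hosts. With DESeq2, 0 passed in either direction. The Nfic call rests on wild type P12, without which the log2 fold change was 0.51. It was also lost without deletion P13 and without deletion P12.

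By unadjusted p under 0.05, 1 of the 181 member circRNAs was higher at P13 and 5 were lower, beside 158 and 156 of all 8785. With DESeq2, 0 of them passed. After adjustment in edgeR, 0 member circRNAs were higher and 1 was lower at P13 (background 0.0114% in each direction). It was the main Nfic circRNA, with 15 and 129 reads at P13 in the deletion and wild type, against 26 and 363 at P12 (log2 -1.48, edgeR adjusted p = 0.0467). Without wild type P12 its log2 fold change was 0.36. The call was lost without any 1 of the other libraries as well.

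Within the deletion, the P13 library against the P12 library gave 2 of 37 member hosts higher (background 6.4%) and 2 lower (6.17%). Kat6a (36 against 17 reads, 1.88-fold, interval 1.03 to 3.58) and Smarca4 (28 against 12 reads, 2.08-fold, 1.02 to 4.48) were higher on few reads. Tle4 (153 against 220 reads, 0.618-fold, 0.5 to 0.764) and Rbbp4 (0 against 68) were lower. Within wild type, P13 against P12 gave 0 of 41 higher (6.81%) and 2 lower (6.56%). These were Nfic (164 against 434 reads, 0.333-fold, 0.277 to 0.4) and Ncoa3 (42 against 66 reads, 0.561-fold, 0.372 to 0.839).

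Some circRNAs were listed in 1 library and no other. Of 156 member circRNAs with at least 20 reads in a library, 2 were of this kind, beside a background of 0.359% (24 of 6694, these 2 included). The members were chosen with earlier results of these data known, so this share cannot show a trait of such genes. The first is an Ncoa2 circRNA at chromosome 1, 13177074 to 13224713, of the exon class, with 494 reads in wild type P12. It was unlisted in deletion P13, deletion P12 and wild type P13. It was the second most abundant Ncoa2 circRNA in that library, where its junction ratio was 0.608 with 638 non-junction reads. Against the other genotype at P12, it was at least 74.5-fold lower in the deletion, and within wild type it was at least 187-fold lower at P13, with 3 reads as the floor and if the caller did not leave it out.

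Of the other Ncoa2 circRNAs with the same end, the one over 13221307 to 13224713 was listed throughout. It had 198, 164, 343 and 334 reads in deletion P13, deletion P12, wild type P13 and wild type P12. Its non-junction reads were 619 and 629 in deletion P13 and P12, and 1424 and 675 in wild type P13 and P12, so that wild type P12 had fewer than wild type P13, while the junction reads were alike. The other 2 with that end, of the intron class, had 10 reads or fewer and were each unlisted in at least 2 libraries. The most abundant Ncoa2 circRNA, over 13221307 to 13286025 and thus with another end, had 933 and 795 reads in deletion P13 and P12, against 1616 and 1394 in wild type P13 and P12. Without the circRNAs listed in a single library, the summed Ncoa2 reads were called higher in the deletion (log2 0.28, edgeR adjusted p = 0.0253, against -1.35 for all its circRNAs on the SRPBM scale) and the summed Rere reads lower (-0.25, 0.0419).

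The second is an intronic Setbp1 circRNA on chromosome 18 with 32 reads in deletion P12 and unlisted in the other 3 libraries. SETBP1 binds the SET protein and DNA. A Setbp1 circRNA with the same end but another start had 22 reads in deletion P13 and 62 in wild type P12 and was unlisted in deletion P12 and wild type P13. Another had 16, 11 and 17 reads in deletion P13, deletion P12 and wild type P13 and was unlisted in wild type P12. The main Setbp1 circRNA, of the exon class with that end as well, had 292 and 225 reads in deletion P13 and P12, against 718 and 552 in wild type P13 and P12 and was listed throughout.

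The reverse, a circRNA unlisted in 1 library with at least 20 reads in each of the other 3, held for 3 of 75 member circRNAs with such reads in 3 libraries (background 0.994%, 30 of 3019). All 3 were unlisted in deletion P13, among 62 with at least 20 reads in each other library (background 0.287%, 7 of 2439, these 3 included). Members were chosen, and some flagged for their listing, with earlier results of these data known. These shares therefore cannot show that circRNAs of such genes are more often unlisted. Rbbp4, encoding a histone chaperone shared by Polycomb, NURF and deacetylase complexes, had 66 reads in deletion P12, 267 in wild type P13 and 187 in wild type P12 for its main circRNA at chromosome 4, 129317648 to 129322869. All 5 Rbbp4 circRNAs were unlisted in deletion P13. The fitted genotype effect had a wide error (log2 -1.87 ± 2.08). At P12 the circRNA was 0.78-fold in the deletion relative to wild type (interval 0.58 to 1.04).

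The Tle4 circRNA at chromosome 19, 14516359 to 14544862, had 69 reads in deletion P12, 82 in wild type P13 and 77 in wild type P12. Its start is that of the main Tle4 circRNA, which had 149 reads in deletion P13. Within the deletion the main Tle4 circRNA had 149 reads at P13 against 138 at P12, while the Tle4 sum was lower at P13. The last was a Rere circRNA at chromosome 4, 150508830 to 150534945, with 30, 35 and 48 reads in deletion P12, wild type P13 and wild type P12. Over all circRNAs, 7 were unlisted in deletion P13 alone, 21 in deletion P12 alone, 0 in wild type P13 alone and 2 in wild type P12 alone. Rbbp4, Tle4 and Eed had no circRNA with at least 20 reads that was listed in a single library. An Eed circRNA over 89955531 to 89964862 had 6, 3 and 65 reads in deletion P13, deletion P12 and wild type P13 and was unlisted in wild type P12.

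**Figure D5:**
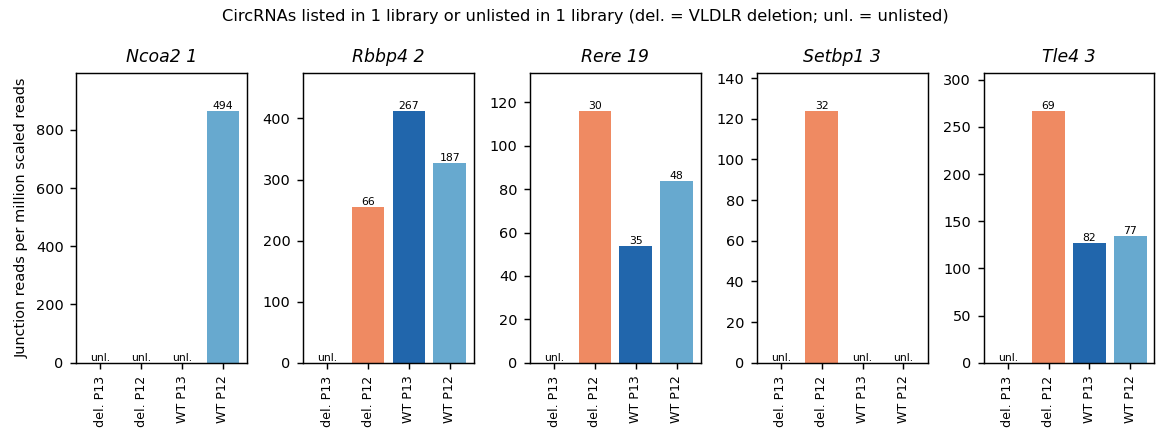
Bars give the level of 5 circRNAs in CPM, on a linear axis from 0, in the 2 VLDLR deletion libraries (red and orange) and the 2 wild-type libraries (blue), with the junction reads above each bar and "unl." where a circRNA was unlisted. The Ncoa2 bar stands in wild type P12 (494 reads) and the Setbp1 bar in deletion P12 (32 reads), and the Rbbp4, Rere and Tle4 circRNAs are unlisted in deletion P13.

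Outside the 44 hosts, 143 other genes of the same families and complexes were looked up, of which 110 had a circRNA and 71 were tested. Here 0 rose and 6 fell, beside a background of 6.04% higher and 7.62% lower, with a median log2 fold change of -0.08, against -0.10 over all hosts. With DESeq2, Scmh1 alone of the 6 passed. Scmh1, a Polycomb gene, had 82, 67, 569 and 474 reads in deletion P13, deletion P12, wild type P13 and wild type P12 (log2 -1.66 ± 0.18, edgeR adjusted p = 3.05e-18). Others among them were the corepressor gene Mta1 (log2 -2.11), the acetyltransferase-complex gene Brpf3 (-1.11), the remodeller gene Ino80 (-0.62) and the bromodomain gene Phip (-0.45). All 6 were lower on the SRPBM scale as well, which moves the folds down. Over all hosts, each of the 299 called lower was also called lower on it. For the day, 0 passed in either direction.

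CircRNAs of cell type marker genes moved between the same libraries. The photoreceptor list, with 16 of 20 genes listed and Cnga1, Nrl and Arr3 among those at 0, summed to 11275 and 11239 CPM in deletion P13 and deletion P12, against 9387 and 8028 CPM in wild type P13 and wild type P12, with 4 genes higher and 0 lower. The lens list (6 of 11 listed, Cryab and Mip at 0) summed to 2154 and 2867 CPM in the deletion, against 1203 and 963 CPM in wild type, with 1 of 4 tested genes higher and 2 lower. Bipolar cell genes (7 of 8 listed) gave 963 and 1288 CPM in the deletion, against 852 and 957 CPM in wild type, with 2 of 5 tested genes higher and 0 lower. Striated muscle genes (8 of 12 listed) gave 3193 and 2670 CPM in the deletion against 2608 and 2504 CPM in wild type. Endothelial genes (7 of 9 listed) gave 165 and 193 CPM in the deletion against 137 and 102 CPM in wild type. Müller glia genes (5 of 8 listed) gave 31 and 31 CPM in the deletion against 15.4 and 38.5 CPM in wild type. They rested on 9 and 8 reads in deletion P13 and P12, against 10 and 22 in wild type P13 and P12. Microglia and leukocyte genes (3 of 7 listed, Ptprc and Cx3cr1 at 0) gave 34.4 and 11.6 CPM in the deletion against 0 and 0 CPM in wild type. This list rested on 10 and 3 reads in deletion P13 and P12. In both the Müller glia list and the microglia and leukocyte list, 0 genes were tested. Pigment epithelium genes gave 1063 and 1045 CPM in the deletion, against 1045 and 987 CPM in wild type, with 0 of 3 tested genes higher and 1 lower. Of the tested muscle genes 0 of 5 passed, and 1 of 2 endothelial genes was higher. On the SRPBM scale both deletion libraries lay below both wild-type libraries for all of these lists but lens, where they overlapped, and microglia and leukocytes, where they lay above. The part of these differences in the host results was not tested.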

How the data were processed

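Junction reads were counted in 4 libraries of mouse ocular tissue, 1 per group. The deposited tables, in CIRI's column layout per the file headers, give counts of junction and non-junction reads, the junction ratio (a fraction) and the host. A second deposited table gives SRPBM, a signal the authors made by dividing junction reads by 1 constant per library. The submitters' processing notes name BWA and DESeq2 without role. No source used here gives the build or annotation, and coordinates are the files' own. Each table lists circRNAs with at least 2 junction reads, so an unlisted circRNA can hold 1 read, and more where the caller omitted it. Host identifiers were matched to RefSeq symbols (GRCm38.p6, names only), and at least 99.8% per library matched.

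From the counts, edgeR 4.0.16 (R 4.3.3; TMM, robust quasi-likelihood, genotype plus day, Benjamini-Hochberg at 0.05) tested all 8785 circRNAs and 3924 hosts that had 10 reads or more in 2 or more libraries. DESeq2 1.42.0 was an alternative. Folds of single pairs carry exact conditional 95% intervals (scipy 1.17.1). Code was tested on simulated data. Nothing in the labels gives separate cultures or animals, so p-values measure only the spread between these libraries. All members were accounted for. CircRNAs named are those called, those with 20 or more reads in a single library or unlisted in 1, those sharing an end with them, and the most abundant circRNA of called hosts or the 10 with most reads. Members and lists were chosen with earlier results of these data known. No sequence was printed, and some genes of the lists are not reported here.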

Additional observations from a re-analysis of the deposited data

How the results depend on the processing

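With library sizes implied by SRPBM, member circRNAs called higher numbered 0 and lower 108 (14 and 10 under TMM), and hosts 0 and 36 (4 and 4). The pair folds then gave 0 higher and 37 lower at P13, 0 higher and 35 lower at P12, and 2 higher for P13 over P12 in wild type, and the day calls were 0 for hosts and circRNAs. The log2 fold changes that turned negative were those of Ep300 (-0.33), Rere (-0.14 and -0.38), Chd1 (-0.031), Tle4 (-0.66), Smarca2 (-0.54), Kat6b (-0.56), Baz2b (-0.32 and -0.19), Ezh2 (-0.998) and Eed (-0.76) circRNAs, and the sums of Chd1 (-0.23), Smarca2 (-0.85), Tle4 (-0.93) and Baz2b (-1.06). DESeq2 gave 7 and 5 circRNAs, 1 and 2 hosts, and 0 day calls. DESeq2's size factors in edgeR kept all 34 named results on their side of the threshold. With the tested factor alone, 2 hosts were higher by genotype and 0 calls were left by day for hosts and circRNAs. No filter on low counts gave 1 circRNA higher and 3 lower by day. Leaving out each library in turn gave 7 to 13 circRNAs higher and 4 to 20 lower, and 1 to 3 hosts higher and 3 to 8 lower. By day it gave 0 to 0 circRNAs lower and 0 to 1 host lower, with Nfic between -2.77 and 0.51 (host) and between -2.85 and 0.36 (circRNA), the positive values without wild type P12. These fits hold 3 libraries and drop the other factor, and circRNAs low in the deletion fell below the read minimum without a wild-type library. Without circRNAs listed in a single library, 7 hosts were higher, adding Ncoa2, Ep300 and Hdac4, and 5 lower, adding Rere, and the same numbers were found when those unlisted in 1 library alone were also left out, an alternative chosen after seeing the data. Calling pairs at 2-fold gave 3 lower at P13, 1 higher and 4 lower at P12, 1 higher and 1 lower in the deletion by day, and 1 lower in wild type. Member circRNAs in a single library numbered 7 at a minimum of 10 reads and 1 at 50. Counts over all features are not given here for the fits without some circRNAs or libraries, the altered pair folds and these minimums. Those member counts therefore cannot tell a change shared by all features from one of the members. The cause of these changes was not tested, beyond the fewer libraries and reads in the alternatives that leave some out. No paired analysis was possible because each group has 1 library and the groups share only the number 1. The deletion libraries held the fewest junction reads, 299723 at P12 and 341873 at P13, which limits them most. The SRPBM constant was larger in them, at 12.1 and 10.6 in deletion P13 and P12, against 9.1 and 9.14 in wild type P13 and P12. Whether the junction totals follow sequencing depth was not tested.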
